A study of Mus musculus with 10 samples.

Results

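The genes encoding kainate receptors were compared between the cortex of mice carrying a Chd8 knock-in (KI) and that of wild-type (WT) mice. The family was taken by gene symbol and holds 7 genes, the subunit genes Grik1 to Grik5 and the genes of their auxiliary proteins, Neto1 and Neto2, among the 13661 genes listed in the authors' deposited table. The series consists of 10 poly(A) RNA-seq libraries of male cortex at 8 weeks of age, 5 from Chd8 KI mice and 5 from WT mice. Its title presents the KI mice as a model of duplication of Chd8, which encodes a chromatin remodeller mutated in autism. The construct, the promoter that drives it, its zygosity, the strain and any shared litters are not stated in the labels. The values are the authors' own DESeq2 comparison of the 2 genotypes, read here as KI over WT because Chd8 then stands higher in KI. Per-library values were not analysed here, so a mean over all libraries and a fold change with its standard error stand for each gene.

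Kainate receptors are tetrameric glutamate-gated cation channels, a branch of the ionotropic glutamate receptors beside the AMPA and NMDA types. The primary subunits GluK1, GluK2 and GluK3, encoded by Grik1, Grik2 and Grik3, can form channels on their own, whereas GluK4 and GluK5, encoded by Grik4 and Grik5, bind glutamate with higher affinity and reach the surface in assemblies with primary subunits. Neto1 and Neto2 are transmembrane proteins with extracellular CUB domains that bind the receptor, alter its desensitisation and affect where it sits at synapses. In the forebrain these receptors carry small, slow synaptic currents, and they also act before the synapse, where they change transmitter release, in part through G proteins.

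At a threshold of 0.05 on the adjusted p, the authors' deposited table called none of the 7 genes different between KI and WT cortex, where 0.0732% of 13660 genes tested were called by the DESeq2 Wald test. At an unadjusted p under 0.05 the count was also 0 of 7, against 3.22% of all genes. The log2 fold changes lay between -0.050 and 0.095, with 5 positive and 2 negative, and their median was 0.054, beside a median of 0.0025 and 51.6% positive values over all genes tested. The 95% intervals held 0 for all 7 genes. Across the family the lowest bound of any interval was a level of 0.849 of WT, for Grik1, and the highest was 1.17-fold, for Grik3. All 7 intervals therefore ended below the 1.40-fold rise of Chd8 itself (95% interval 1.22 to 1.61, adjusted p = 0.0044, DESeq2), and below the lower end of its interval.

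**Figure D1:**
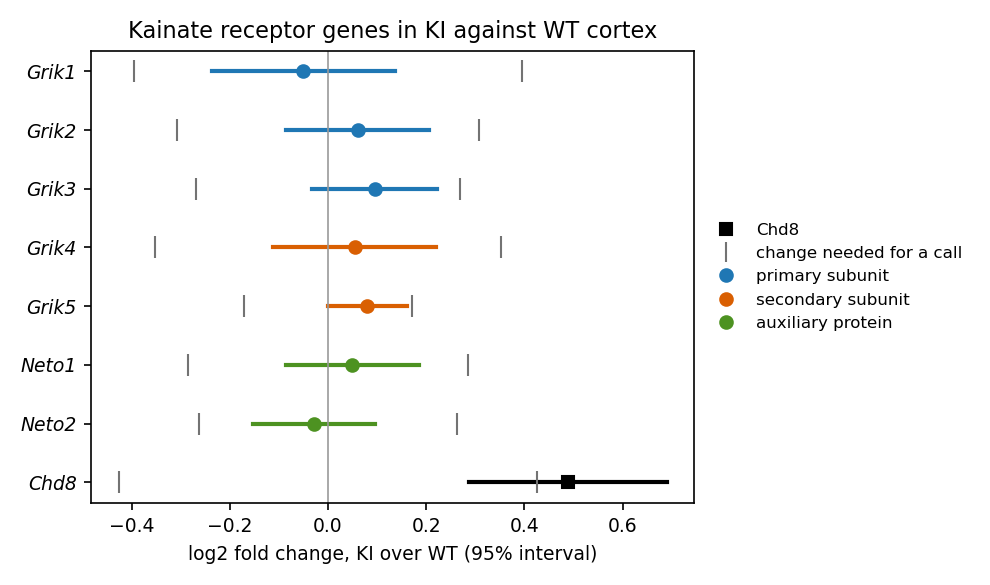
Points give the log2 fold change of each gene, KI over WT, and bars its 95% interval computed from the deposited standard error; grey ticks mark the change that would have given the Wald score of the weakest call in the table. All 7 bars cross 0 and stay inside their ticks, while Chd8 (square) lies beyond its tick at 0.49.

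The subunits are alike in sequence, so whether their reads could be told apart was examined first. The stretch that encodes the third transmembrane segment, which lines the channel and is the hallmark of ionotropic glutamate receptors, is shown for each subunit from the GENCODE M21 transcripts of GRCm38, read 5′ to 3′ on the coding strand. Capitals mark positions at which the 5 subunits do not all carry the same base.
Grik1: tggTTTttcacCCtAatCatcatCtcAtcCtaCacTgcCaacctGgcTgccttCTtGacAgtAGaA
Grik2: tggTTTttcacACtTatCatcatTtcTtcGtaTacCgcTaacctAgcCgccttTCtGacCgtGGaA
Grik3: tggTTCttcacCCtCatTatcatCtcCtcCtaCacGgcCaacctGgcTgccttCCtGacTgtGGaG
Grik4: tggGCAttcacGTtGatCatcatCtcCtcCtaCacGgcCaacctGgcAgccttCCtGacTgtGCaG
Grik5: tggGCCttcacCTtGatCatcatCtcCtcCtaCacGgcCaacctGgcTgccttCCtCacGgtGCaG

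Over these 66 bases, 44 were alike in all 5 subunits and 22 were not. The most alike were Grik4 and Grik5, the secondary subunits, with 61 identical bases (92.4%), and the least alike were Grik2 and Grik5 with 47 (71.2%). The longest identical run between any 2 subunits in this stretch was 38 bases, between Grik3 and Grik5. Over the whole annotated transcripts, no member shared a window of 50 bases with another member. The windows were fixed at 50 and 100 bases without use of the read length. Only annotated transcripts were searched, not the rest of the genome. Between 0% and 0.448% of the 50-base windows of Neto2 and the 5 subunits also occurred in transcripts of other genes, and no 100-base window did. In Neto1 2.04% of the 50-base windows and 1.43% of the 100-base windows were shared, all with AC113599.1, an antisense gene that overlaps Neto1. The labels do not say whether counting used strand, so reads from that overlap cannot be assigned to one of these genes with certainty.

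Grik3 had the highest level per length of the 3 primary subunits, by coding sequence and by transcript. Its mean normalised count was 2226 in the authors' deposited table, and its log2 fold change, KI over WT, was 0.095 (standard error 0.065, p = 0.143). This was the highest value in the family, above 87.2% of all genes tested, and its interval in fold ran from 0.978 to 1.17. Grik3 (gene 14807) lies on chromosome 4 from 125490259 to 125714173 in GRCm38. Grik2, whose product is the most widely used primary subunit in the forebrain and can be edited at the RNA level in its pore loop, had a mean normalised count of 1171 and a log2 fold change of 0.061 (standard error 0.074, p = 0.414) in the authors' deposited table. The gene-level values carry no information on editing or on splice forms. Grik2 (gene 14806) spans chromosome 10 from 49093680 to 49790161, the longest locus of the family.

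Grik1, a subunit known from cortical interneurons, had the lowest level per length of all 7 genes and a mean normalised count of 303 in the authors' deposited table. The log2 fold change given for Grik1 in the authors' deposited table was -0.050 (standard error 0.095, p = 0.598). This was the lowest value in the family and had the largest standard error, and its interval ran from 0.849 to 1.10 in fold. Grik1 (gene 14805) lies on chromosome 16 from 87895901 to 88290863. Because Grik1 is concentrated in inhibitory neurons, their markers are given beside it. All 11 inhibitory neuron markers were tested and none passed the threshold in either direction, against 0.0732% of all genes tested. At an unadjusted p under 0.05 (DESeq2) the count was 0 of 11, against 3.22%. Of the 11 values 7 were negative and 4 positive, where 51.6% of all genes tested were positive. Their median log2 fold change was -0.016. In bulk cortex, fewer cells of a type and less RNA per cell cannot be told apart, and the part of interneuron number in the Grik1 value was not tested.

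The secondary subunits have coding sequences of similar length, 2937 bases for Grik5 and 2868 bases for Grik4, and stood far apart in level. The authors' deposited table gave a mean normalised count of 5044 for Grik5, above that of 94.9% of all genes tested, and of 512 for Grik4, a subunit known above all from hippocampal pyramidal cells. Grik5 came closest to a difference between genotypes, with a log2 fold change of 0.080 (standard error 0.041, p = 0.0516, adjusted p = 0.99986, DESeq2) in the authors' deposited table. It ranked 455th of 13660 genes by p, and its 95% interval ran from -0.00056 to 0.16 on the log2 scale, an upper bound of 1.12 in fold. For Grik4 the authors' deposited table gave a log2 fold change of 0.054 (standard error 0.085, p = 0.524), with an interval from 0.925 to 1.17 in fold. Grik5 (gene 14809) lies on chromosome 7 from 25009849 to 25075694, the shortest locus among the subunits, and Grik4 (gene 110637) on chromosome 9 from 42518182 to 42945000.

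The auxiliary protein genes had mean normalised counts of 1799 for Neto1 and 1855 for Neto2 in the authors' deposited table, and their fold changes had opposite signs. For Neto1, whose product also binds NMDA receptors, the log2 fold change was 0.049 (standard error 0.069, p = 0.474), and for Neto2, whose product also binds the chloride transporter KCC2, it was -0.028 (standard error 0.063, p = 0.66), both from the authors' deposited table. In fold the intervals were 0.942 to 1.14 for Neto1 and 0.900 to 1.07 for Neto2, and they overlapped along most of their length. Neto2 (gene 74513) lies on chromosome 8 from 85636718 to 85700952, and Neto1 (gene 246317) on chromosome 18. All 7 genes are protein-coding, and none lies on chromosome 14, which carries Chd8. Since the labels do not state the construct, distance from its site cannot be judged.

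The values of the members spanned 0.15 on the log2 scale from the lowest to the highest, and the 95% intervals overlapped for all 21 pairs of members. The median log2 fold change was 0.061 for the 3 primary subunits, 0.067 for the 2 secondary subunits and 0.011 for the 2 Neto genes. After subtraction of the median of genes of like transcript length, the same medians were 0.014, 0.055 and -0.018, so that of the Neto genes changed sign. Differences between members were not tested, since the covariance of 2 genes cannot be had from the deposited values. The members' standard errors lay near those of genes of like abundance. That of Grik5 was 0.041, against a median of 0.052 over the 1000 genes nearest to it in mean normalised count, and that of Grik2 was 0.074 against 0.067.

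**Figure D2:**
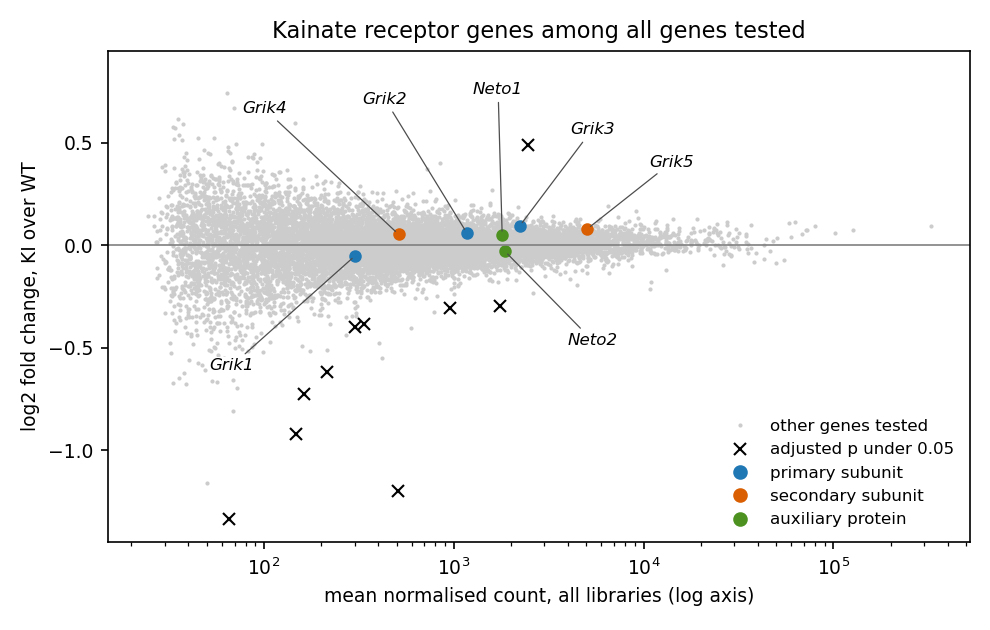
The log2 fold change of each gene, KI over WT, is plotted against its mean normalised count over all libraries on a log axis, with the 7 kainate receptor genes coloured by role and crosses for the 10 genes past an adjusted p of 0.05. The 7 genes lie inside the cloud of all genes, between -0.050 and 0.095.

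The measured change that a call would have taken differed between members. The weakest call in the table had a Wald score of 4.15 in absolute value, and the largest score in the family was 1.95, that of Grik5. At its own standard error Grik5 would have needed a measured 1.13-fold change to reach the score of the weakest call, Neto2 1.20-fold, Grik3 1.21-fold, Neto1 1.22-fold, Grik2 1.24-fold, Grik4 1.28-fold and Grik1 1.31-fold. These are the measured changes that would have been called, not limits on the true change, and the depth of each library is unknown.

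Transcript levels can be compared between genes only per length, and the choice of length matters here. Per kilobase of the longest coding sequence, the mean normalised count over all libraries was 1717 for Grik5, 1125 for Neto1, 1118 for Neto2, 808 for Grik3, 430 for Grik2, 178 for Grik4 and 106 for Grik1. On this scale Grik5 made up 53.0% of the sum over the 5 subunits, Grik3 24.9%, Grik2 13.3%, Grik4 5.51% and Grik1 3.28%. Per kilobase of the longest annotated transcript, which runs from 3655 bases for Grik1 to 9427 bases for Grik2, the order began with Grik5 at 1242 and Neto2 at 331, followed by Grik3 at 248, Neto1 at 215, Grik2 at 124, Grik4 at 86.9 and Grik1 at 82.8. Per transcript length the shares of the subunit sum were 69.6% for Grik5, 13.9% for Grik3, 6.96% for Grik2, 4.87% for Grik4 and 4.64% for Grik1. The annotation and settings used for counting are not stated, so neither length can be preferred here. Grik5 was thus highest and Grik1 lowest on either scale, and the ratio between them was 16.2 per coding length and 15.0 per transcript length. The other ranks changed only for the Neto genes and Grik3. The spread of these levels over libraries is unknown, so neighbouring ranks such as Neto1 and Neto2 per coding length, or Grik4 and Grik1 per transcript length, were not told apart here.

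**Figure D3:**
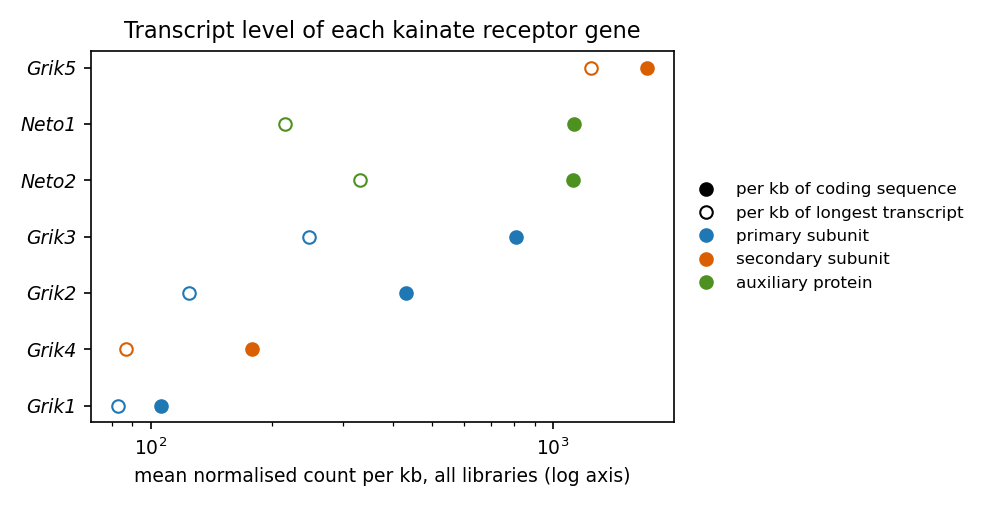
Mean normalised count over all libraries per kilobase of the longest coding sequence (filled) and of the longest annotated transcript (open), on a log axis. Grik5 is highest and Grik1 lowest on either scale, and Neto1 moves from the second place per coding length to the fourth per transcript length.

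Fold changes moved with transcript length over all genes, and kainate receptor genes have long transcripts. The median longest transcript was 5887 bases in the family and 3565 bases over all genes tested. Across the 13098 genes with an annotated length, the Spearman correlation between the Wald score and length was 0.248, given as a description, since genes are not independent and all share the same libraries. The 1000 genes nearest in length had a median log2 fold change of 0.046 for Grik2, 0.045 for Grik3 and 0.039 for Neto1, so Grik2 stood 0.014 and Neto1 0.010 above genes of their own length. Grik5, with a shorter transcript, kept 0.075 of its 0.080, and it stood above 85.0% of the genes of like length. Grik3 stood 0.050 and Grik4 0.036 above that median, while Grik1 and Neto2 stood 0.051 and 0.046 below it. The family median after this subtraction was 0.014, against 0.054 before it.

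**Figure D4:**
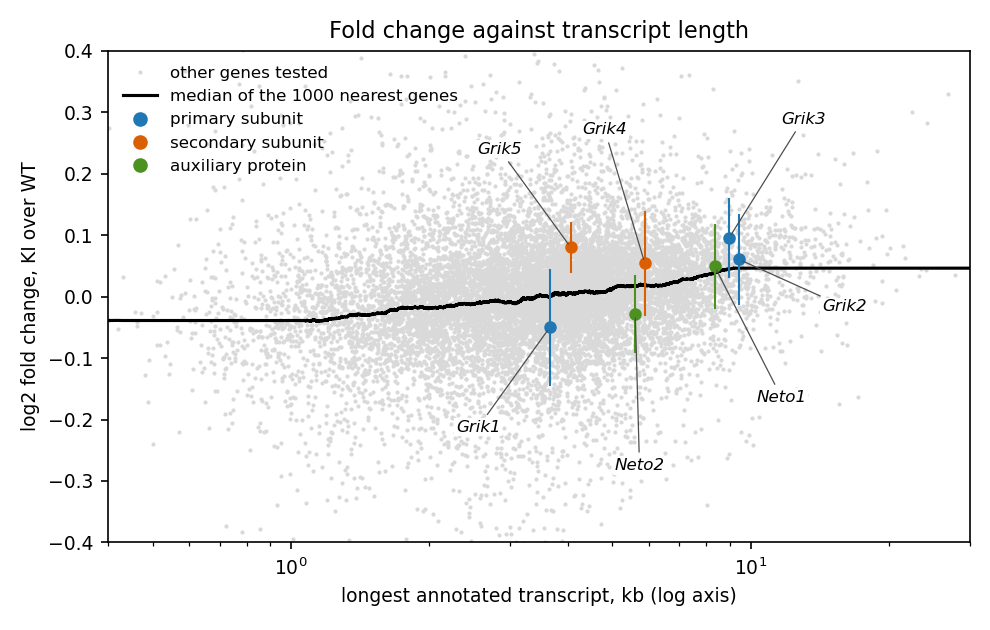
The log2 fold change, KI over WT, is plotted against the longest annotated transcript on a log axis, with bars of 1 standard error for the kainate receptor genes and a black line for the median of the 1000 genes nearest in length, flat at both ends where the window holds the shortest or the longest genes. Genes beyond the axis limits are not drawn. Grik2, Neto1 and Grik3 lie where that line is highest, and Grik1 and Neto2 lie under it.

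Other genes of the kainate receptor system were read from lists drawn from general knowledge, and no member of these lists passed the threshold on adjusted p in either direction by the DESeq2 Wald test. Among 19 partners and scaffolds, 12 log2 fold changes were positive and 7 negative, with a median of 0.021. An unadjusted p under 0.05 was found for 1 of 19, against 3.22% of all genes tested. The 3 with the smallest p were Cask, a membrane scaffold kinase, at 0.11 (standard error 0.056, p = 0.0434), Dlg3, a scaffold of the postsynaptic density, at 0.071 (0.037, p = 0.0594), and Grip1, a PDZ protein that binds AMPA and kainate subunits, at 0.18 (0.097, p = 0.0639) in the authors' deposited table. C1ql2 and C1ql3, secreted proteins that recruit kainate receptors at hippocampal mossy fibre synapses, stood at 0.030 (0.10) and -0.0023 (0.049) in the authors' deposited table. Among 20 genes of editing and modification, 14 were positive and 6 negative, with a median of 0.012. An unadjusted p under 0.05 was found for 1 of 20, against the same 3.22%. Adarb1, whose product edits the Grik1 and Grik2 transcripts, stood at -0.10 (0.060, p = 0.0962) and Camk2a, a subunit of the calcium/calmodulin-dependent kinase, at 0.12 (0.042, p = 0.0062) in the authors' deposited table.

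The other ionotropic glutamate receptor genes had small fold changes as well. Of the 13 listed, 12 were tested and Grin3b was not analysed here. The 12 had 9 positive and 3 negative log2 fold changes, where 51.6% of all genes tested were positive. Their median was 0.042, against 0.054 for the 7 kainate receptor genes. An unadjusted p under 0.05 was found for 0 of 12, against 3.22% of all genes tested. By type the median was 0.049 for 4 AMPA subunits, 0.020 for 6 NMDA subunits and 0.066 for 2 delta subunits. After subtraction of genes of like transcript length, the median of the 12 was 0.013. That of the AMPA subunits was 0.032, that of the delta subunits 0.048 and that of the NMDA subunits -0.018, with the sign turned. The smallest p-values were those of Gria2, an AMPA subunit, at 0.086 (standard error 0.075, p = 0.251), and Grin3a, an NMDA subunit, at 0.10 (0.097, p = 0.302) in the authors' deposited table.

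Genes of the metabotropic arm, through which kainate receptors act on G proteins and on potassium currents, had 11 positive values and 1 negative among 12, with a median log2 fold change of 0.056, and the median was 0.052 after subtraction of genes of like length. Among these 12, 0 had an unadjusted p under 0.05, against 3.22% of all genes tested. Positive values made up 51.6% of all genes tested. Plcb1, a phospholipase C, stood at 0.086 (standard error 0.046, p = 0.0632), and Plcb4, the only negative one, at -0.078 (0.061, p = 0.205) in the authors' deposited table. Gnao1, the most abundant G protein alpha subunit of the list, stood at 0.0067 (0.039) in the authors' deposited table.

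**Figure D5:**
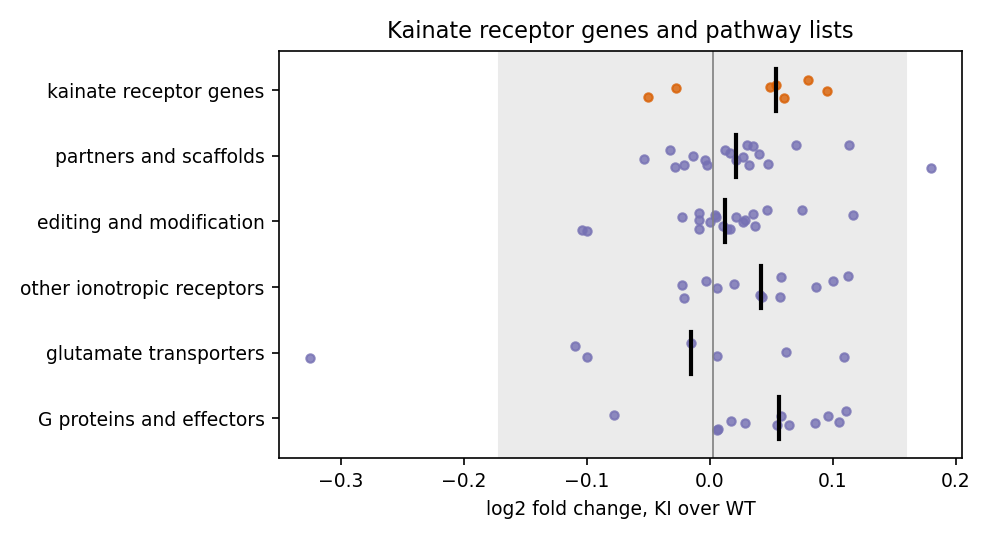
Each point is a gene, placed by its log2 fold change, KI over WT; black bars are list medians and the grey band holds the central 90% of all genes tested, from -0.17 to 0.16. The 7 kainate receptor genes lie inside the band, as do all other listed genes except Grip1 at 0.18 and the transporter gene Slc17a6 at -0.32.

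The labelled tissue was checked with markers. All 11 markers of cortical excitatory neurons were listed, among them Slc17a7, the vesicular glutamate transporter of cortical neurons, with a mean normalised count of 28078 in the authors' deposited table, and their median log2 fold change was 0.042 with 9 positive and none past the threshold. Markers of adjoining tissue were listed as well. The marker lists were chosen with earlier results of these data known, so their medians and counts are descriptions and not independent support. Over all genes tested, 0.0732% passed the threshold. The 10 thalamic markers had a median of -0.44, with 8 negative and 3 past the threshold, Tcf7l2, Prkcd and Ramp3, all lower in KI. The 8 meningeal markers had a median of -0.26 with 8 negative and 1 past the threshold, Igf2, and the 7 choroid plexus markers had a median of -0.19 with 7 negative and none past it. Medians for the other lists were 0.053 for 8 hippocampal markers, -0.090 for 8 striatal, -0.074 for 8 oligodendrocyte, 0.044 for 7 oligodendrocyte precursor and 0.00074 for 7 astrocyte markers, none with a member past the threshold. All 8 striatal and all 8 oligodendrocyte values were negative. Positive values numbered 6 of 8 in the hippocampal list, 5 of 7 in the oligodendrocyte precursor list and 4 of 7 in the astrocyte list. Kainate receptor genes are also transcribed in several of these tissues and cells, and the part of tissue or cell makeup in the members' values was not tested.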

How the data were processed

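Poly(A) RNA-seq was carried out on 5 KI and 5 WT cortex libraries, with groups taken from the titles. The authors used, per the submitters' processing notes, Trimmomatic 0.39, HISAT2 2.1.0, featureCounts 2.0.0 and DESeq2 1.26.0 with build mm10, and neither settings, annotation, strand use nor the model is stated there. Per the file headers, the deposited table holds for each gene the mean normalised count over all libraries (a signal value), the log2 fold change and its standard error, the Wald score, and the p-value and adjusted p-value. The direction is not named in the header and was read from Chd8.

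A model of counts had been planned for the case of per-library counts, and the results deposited by the authors were used in its place. Adjusted p-values matched those of Benjamini and Hochberg's method over 13660 genes to within 1e-06, and calls used a threshold of 0.05. Symbols and coordinates came from RefSeq for GRCm38 and named 13497 of 13661 genes, all 7 members among them. Lengths and sequences came from GENCODE M21. The 95% intervals are normal intervals, computed with Python 3.11.15, pandas 2.3.3 and numpy 2.4.6, and the scripts were tested on simulated data. Members and lists were chosen with earlier results of these data known. Named genes were the 7 members, Chd8, up to 3 genes with the smallest p per pathway list, and any marker past the threshold, of which a few list genes are not reported here. C1ql2, C1ql3, Gnao1 and Slc17a7 were named after their values were seen.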

Additional observations from a re-analysis of the deposited data

How the results depend on the processing

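The count of kainate receptor genes past the threshold was 0 under each of the 5 alternatives tried. These were a minimum mean normalised count of 50 or 200, an adjusted p under 0.1 or 0.01, and a minimum log2 change of 0.5. The stricter threshold and the minimum change could only take calls away. The largest Wald score in the family was 1.95, against 4.15 for the weakest call. The count was therefore close to fixed in advance, and its constancy is no test of the result. The family median of 0.054 was 0.052 after subtraction of the median of all genes, 0.061 without the Neto genes, 0.014 after subtraction of genes of like transcript length and 0.054 after subtraction of genes of like mean count, the last chosen after seeing the data. All 14 values of single members under the subtractions of all genes and of genes of like length kept their sign. The median of all genes, 0.0025, was smaller in size than any member's value, so its subtraction could not turn a sign. Nor could subtraction of genes of like length turn Grik1 or Neto2. Both values are negative, and the medians subtracted were positive, 0.00056 and 0.018. After subtraction of genes of like length, Grik2 kept 0.014 and Neto1 0.010, both below their standard errors of 0.074 and 0.069. Signs rest on reading the table as KI over WT. No paired analysis was possible because per-library values were not analysed here, and for the same reason the planned changes of normalisation and count model and the fits without each replicate were not run.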

Other observations

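Genes that load glutamate into vesicles or clear it from the synapse were also listed in the authors' deposited table. None of the 7 passed the threshold in either direction. An unadjusted p under 0.05 (DESeq2) was found for 2 of the 7, against 3.22% of all genes tested. Of the 7 log2 fold changes 3 were positive and 4 negative, with a median of -0.016. Slc17a6, the vesicular transporter of subcortical glutamatergic neurons and also a member of the thalamic marker list, stood at -0.32 (standard error 0.11, unadjusted p = 0.0033, adjusted p = 0.867, DESeq2). Slc1a1, the neuronal transporter EAAC1, stood at -0.10 (0.046, unadjusted p = 0.0284), and Slc1a2, the main astrocytic transporter, at 0.11 (0.065, unadjusted p = 0.0926) in the authors' deposited table. The thalamic list, which itself holds Slc17a6, had a median of -0.44, and the part of thalamic tissue in the Slc17a6 value was not tested.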
